A study of Mus musculus with 12 samples.

Results

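Spleens of mice given 2-deoxy-D-glucose (2DG) until 10 weeks of age were compared with spleens of untreated mice at 6 weeks, the younger age that serves as the reference before overt disease. All 4 libraries labelled as 10-week 2DG-treated and all 4 labelled as 6-week untreated were taken, 8 of the 12 libraries in the series. Of 53715 genes in the count table, 18139 had enough counts in these 8 libraries to be tested, and every one of them is part of the comparison. All mice were Yaa DKO: BXSB.Cg stock with the Cd8atm1Mak and Il15tm1Imx alleles together with Yaa, so the controls have the same targeted Cd8a and Il15 alleles and the same Yaa mutation as the treated mice. The treated mice drank water with 2DG at 6 g/L ad libitum. One more group, 4 untreated spleens at 10 weeks with the same genotype, is no part of the main test: it gives levels set beside the others, enters a fit of all 12 libraries and is compared with 2DG at the end. The treated and the 6-week mice differ in age as well as in treatment, and the effects of age and 2DG cannot be told apart in this comparison. The labels do not tie each library to a mouse of its own, so the p-values reflect variation among these libraries, some of which may be technical.

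2DG is a glucose analogue that hexokinase phosphorylates but that glycolysis cannot carry further, and it can also enter the sugar chains that are built for N-linked glycosylation. The Yaa mutation moves a segment of the X chromosome that holds Tlr7, a sensor of single-stranded RNA, onto the Y chromosome, and male BXSB mice with it develop a lupus-like disease with autoantibodies, enlarged spleens and nephritis. The mouse spleen holds B and T cell zones, plasma cells that secrete antibody, macrophages that recycle iron from old red cells, and a red pulp that makes erythrocytes through adult life.

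The 6-week libraries held 15596040 to 22480545 counts and the 2DG libraries 21581820 to 23835453. Spread between libraries, as edgeR's common biological coefficient of variation, was 0.127 at 6 weeks, 0.114 with 2DG and 0.239 in the untreated 10-week spleens. The 16 genes of a mature B cell list were present in every library, with a summed level of 7394 to 8711 CPM (counts scaled to a common library total) at 6 weeks and 7374 to 8375 with 2DG. The targeted genes were both still counted. Cd8a read 57.0, 56.4, 62.6 and 70.7 CPM in the 6-week spleens and 46.7, 59.2, 48.2 and 47.0 with 2DG, and Il15 read 5.03 to 5.61 and 4.67 to 6.11 CPM. A count summed over a whole gene does not see whether its targeted part is present, so these values check neither allele. Levels are given throughout in CPM after normalisation over all 12 libraries. They compare libraries for 1 gene and not genes with each other.

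The spleens under 2DG at 10 weeks were not those of 6-week mice. Of the 18139 genes, 1367 passed the test (edgeR's quasi-likelihood test, Benjamini-Hochberg adjusted p under 0.05), 803 higher and 564 lower with 2DG, which is 7.54% of the genes tested, 4.43% upward and 3.11% downward. Most differences were small: 204 of the 1367 reached a 2-fold change, 146 upward and 58 downward, and the median log2 fold change of all genes was -0.001. The values of the groups did not overlap for 2868 genes, or 15.8%. Erythroid genes led the rises, and plasma cell, secretory and interferon-response genes were among the falls.

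**Figure D1:**
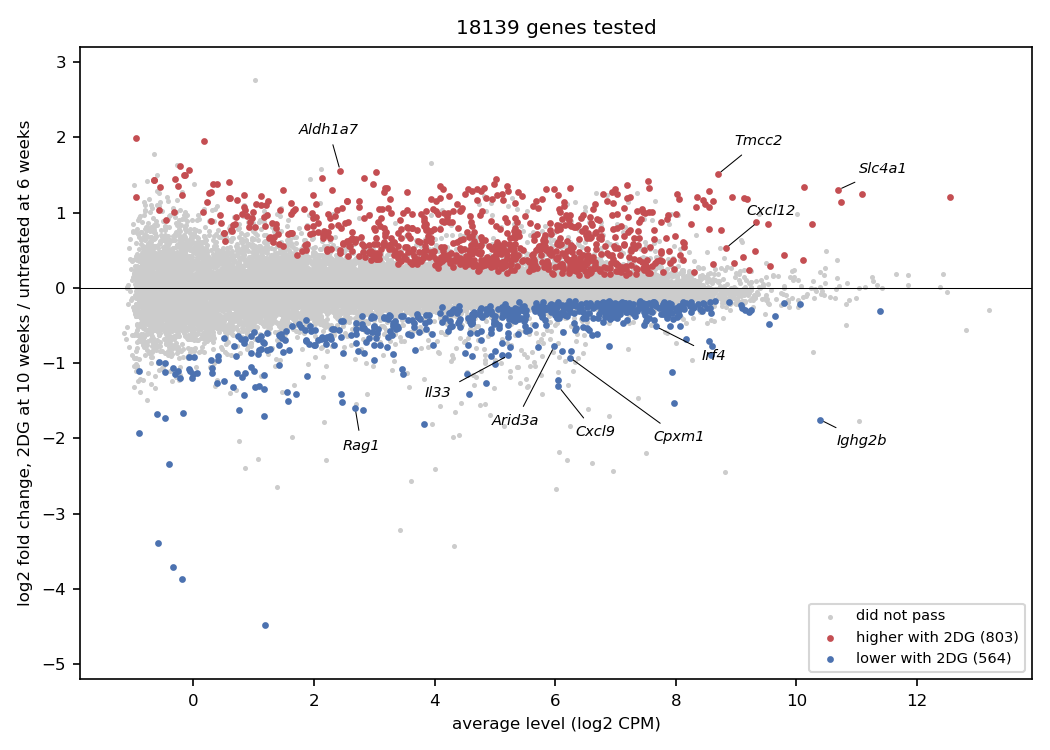
Log2 fold change (vertical axis, 2DG at 10 weeks over untreated at 6 weeks) against average level in log2 CPM (horizontal axis) for the 18139 genes tested, each point 1 gene. The 803 genes called higher with 2DG are red, the 564 called lower are blue, and Arid3a, Cpxm1 and Il33 lie among the lower genes while Slc4a1, Tmcc2 and Cxcl12 lie among the higher ones.

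The number of calls depended on single libraries. Leaving out the 6-week replicates 1, 2, 3 and 4 in turn gave 825, 467, 290 and 464 calls, and leaving out the 2DG replicates 9, 10, 11 and 12 gave 517, 403, 133 and 1826. In all 8 of these fits 125 genes were called, 68 higher and 57 lower, or 0.689% of the genes tested. When the untreated 10-week libraries were fitted too, so that their wider spread entered the shared estimate, 24 genes passed, 7 higher and 17 lower. Of the genes named by rule, Arid3a, Il33, Aldh1a7, Slco4a1 and Dnm3 passed there and all others did not. Of the named genes, every call not said below to hold in all 8 fits was lost at least without 2DG replicate 11. Tested against a minimum fold change of 1.5, 1 gene passed. It was Lgr5, a receptor for R-spondins, singled out here after its values were seen, at 3.30 ± 0.27 CPM at 6 weeks and 1.01 ± 0.0948 with 2DG (SD, n = 4 each), and it was called in each of the 8 fits too.

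**Figure D2:**
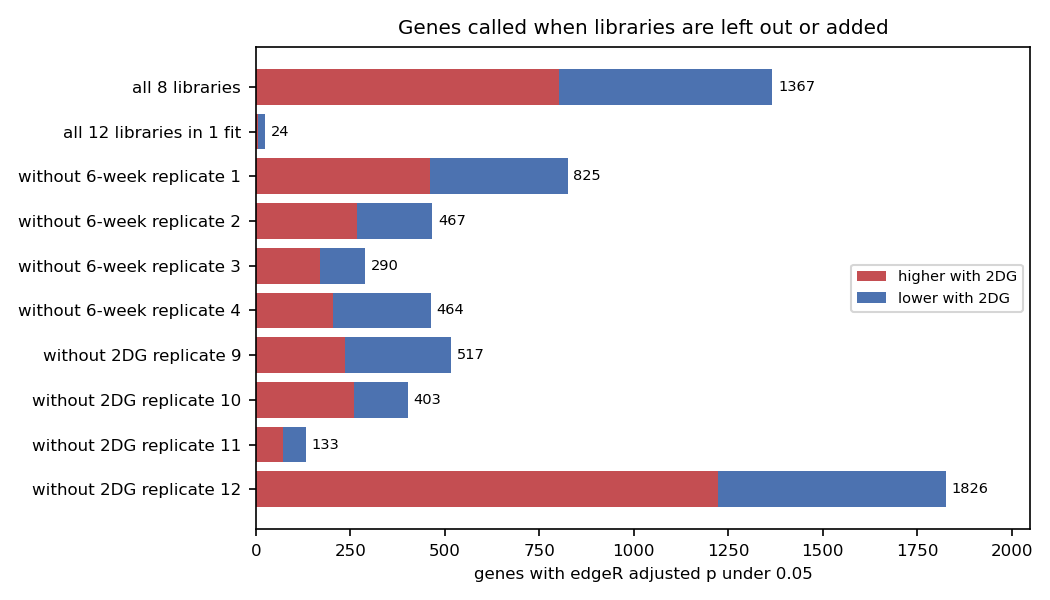
Number of genes with an edgeR adjusted p under 0.05 (horizontal axis) with all 8 libraries, with all 12 libraries in 1 fit, and with each of the 8 libraries left out in turn, split into higher (red) and lower (blue) with 2DG. The count falls from 1367 to 133 without 2DG replicate 11 and rises to 1826 without 2DG replicate 12.

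The genes that separated the groups most firmly were falls. Arid3a, a B-lineage transcription factor that binds near the immunoglobulin heavy chain locus (chromosome 10, 79927043 to 79955018, GRCm38), read 83.6, 74.8, 80.4 and 74.1 CPM at 6 weeks and 48.1, 46.2, 43.2 and 45.4 with 2DG. Every treated spleen lay far under every 6-week spleen, and the untreated 10-week spleens, at 77.1 to 90.9, lay with the 6-week ones. The log2 fold change was -0.77 ± 0.059 (SE) with adjusted p = 0.0001737, and the call held in all 8 fits that leave out 1 library (adjusted p up to 0.00234) and in the 12-library fit (adjusted p = 0.00144). Cpxm1, a member of the carboxypeptidase family (chromosome 2, 130390775 to 130397574), read 100.4, 96.1, 92.5 and 99.4 CPM at 6 weeks and 50.7, 46.6, 48.4 and 58.5 with 2DG. Again no values overlapped, and the log2 fold change was -0.93 ± 0.071 (adjusted p = 0.0001737), with a call in each of the 8 fits (adjusted p up to 0.00234) but not in the 12-library fit (adjusted p = 0.0746). In the untreated 10-week spleens Cpxm1 ran from 91.3 to 201 CPM.

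Several other named genes were called in every fit that left out a library. Among the falls these were Endou, a gene of a poly(U)-specific endoribonuclease (log2 fold change -0.91), and Bhlhe41, a transcriptional repressor with roles in the circadian clock and in B-1 cells (-0.87). Plac8 (-0.42), the dynamin gene Dnm3 (-1.15) and the organic anion transporter gene Slco4a1 (-0.96) were falls too. Among the rises were Aldh1a7, of the aldehyde dehydrogenase family, and Dusp1, a phosphatase that switches off MAP kinases. Aldh1a7 read 3.15, 2.48, 3.11 and 1.6 CPM at 6 weeks and 7.11, 10.2, 7.45 and 5.85 with 2DG, and had the largest rise among called genes with a mean log2 CPM of 2 or more, no overlap and no predicted model (1.55 ± 0.22, adjusted p = 0.008675). Dusp1 read 16.7 to 20.01 CPM at 6 weeks and 24.8 to 37.8 with 2DG (0.74 ± 0.116, adjusted p = 0.01096). Of the genes called in all these fits, Rgcc, a complement-response regulator of the cell cycle, was picked out after its values were seen: it stood at 12.2 ± 1.5 CPM at 6 weeks, 23.5 ± 2.65 with 2DG and 12.6 ± 1.45 in untreated 10-week spleens.

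Of 15 tested genes of the stroma and endothelium list, 2 rose and 2 fell, while 11 did not pass; 4.43% of all genes rose and 3.11% fell. Il33, an alarmin cytokine that splenic stromal cells store in the nucleus (chromosome 19, 29925114 to 29960718), read 49.3, 42.8, 52.0 and 46.0 CPM at 6 weeks and 22.8, 20.9, 26.7 and 31.6 with 2DG. The fall (log2 fold change -0.90 ± 0.121, adjusted p = 0.008339) held in every fit without 1 library and in the 12-library fit (adjusted p = 0.0487). Untreated 10-week spleens read 45.2 to 68.5 CPM, level with or above the 6-week spleens. Cxcl12, the chemokine that holds plasma cells and haematopoietic precursors in their niches (chromosome 6, 117168535 to 117181367), went the other way, from 392, 378, 338 and 349.6 CPM to 499, 565, 559 and 474. The groups did not overlap, and the log2 fold change was 0.53 ± 0.071 (adjusted p = 0.007457), a call that held in each fit without 1 library but not in the 12-library fit (adjusted p = 0.589). In the untreated 10-week group Cxcl12 scattered from 112 to 685 CPM and its difference from 2DG did not pass (adjusted p = 0.3787). Tlx1, a transcription factor needed to form the spleen, also rose, from 16.9 to 22.7 CPM on average (0.43 ± 0.091), but not without 6-week replicate 3 or 2DG replicate 10 or 11. The list's summed level was 1898 to 2128 CPM at 6 weeks and 1794 to 2119 with 2DG.

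**Figure D3:**
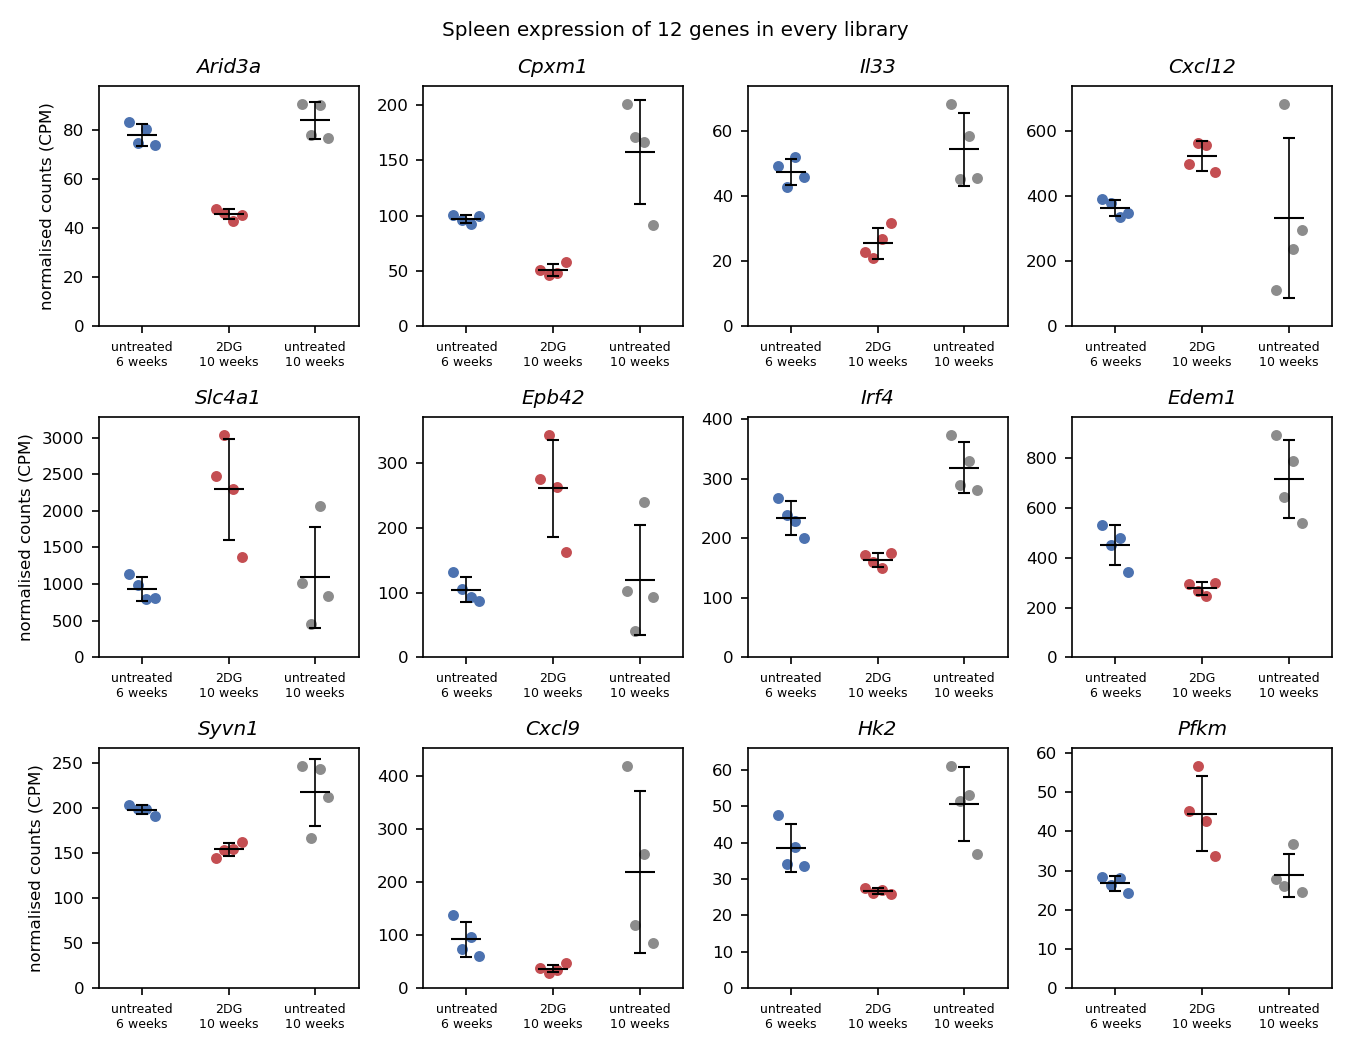
Level in CPM (vertical axis, from 0) of 12 genes in every library of the 3 groups, each point 1 library, with the mean and SD of 4 libraries as black bars. Arid3a, Cpxm1, Il33, Irf4, Edem1, Syvn1, Cxcl9 and Hk2 are lower with 2DG than at 6 weeks without overlap, Cxcl12, Slc4a1, Epb42 and Pfkm are higher without overlap, and the lowest 2DG library of the erythroid genes Slc4a1 and Epb42 is replicate 12.

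Several plasma cell genes were below the 6-week level. Of 14 plasma cell genes tested, 9 fell and none rose, where 3.11% of all genes fell, all 14 fold changes were negative, and the list's median was -0.62 against -0.001 for all genes. Irf4, a transcription factor required for plasma cell formation, read 268, 239.6, 228 and 199 CPM at 6 weeks and 171, 159.6, 149 and 176 with 2DG. All treated spleens lay below all 6-week spleens (log2 fold change -0.51 ± 0.086, adjusted p = 0.01232), and the untreated 10-week spleens were higher than both at 281 to 373 CPM. Mzb1, an endoplasmic reticulum (ER) chaperone of antibody assembly, read 433, 336, 318 and 224 CPM at 6 weeks and 174, 136, 124 and 168 with 2DG (-1.12 ± 0.211, adjusted p = 0.0298). Its 6-week values were themselves widely spread, but none reached down to a treated value. Prdm1, which encodes the plasma cell regulator Blimp-1, fell by 0.84 on the log2 scale, and Sdc1, which encodes the surface marker CD138, by 0.90, with 1 treated spleen (21.7 CPM) just above the lowest 6-week spleen (21.6 CPM) for Sdc1.

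Slamf7, a receptor on plasma cells and other lymphocytes (-0.57 ± 0.082), and Tram2 (-0.84 ± 0.126) were the 2 members called in every fit without 1 library. For the list, the 9 falls became 5, 3, 4 and 10 without the 6-week replicates 1 to 4 and 5, 3, 2 and 8 without the 2DG replicates 9 to 12, and 0 in the 12-library fit. In bulk spleen RNA, fewer plasma cells and less RNA of these genes per cell cannot be told apart. The summed level of the list was 2543 to 4496 CPM at 6 weeks, 1937 to 2862 with 2DG and 4175 to 7312 in untreated 10-week spleens, so the sums of the treated and the 6-week groups overlapped.

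Antibody transcripts followed a less certain course. Immunoglobulin genes took 4.94, 3.93, 3.73 and 2.79% of counts at 6 weeks and 3.08, 1.93, 2.07 and 2.86% with 2DG. The ranges met, and the difference of -1.36 percentage points did not pass an exact two-sided permutation test (p = 0.0857, adjusted p = 0.114 over 4 classes). Untreated 10-week spleens stood at 5.11 to 10.7%. Among 12 constant region genes, Ighg2b alone fell, from 2801, 1916, 2118 and 1280.0 CPM to 769.7, 619.8, 291 and 726 (-1.75 ± 0.377, adjusted p = 0.04477), and that call was lost without any 1 of the 8 libraries (adjusted p up to 0.118). Across all genes tested, 3.11% fell. Ighg2c, the isotype linked to interferon and Tlr7 signalling, averaged 3191 CPM at 6 weeks, 938.5 with 2DG and 14600 in untreated 10-week spleens. Its groups did not overlap, yet its spread was wide (-1.76 ± 0.567, adjusted p = 0.1169). Ighm, the constant region of IgM, read 10080 and 8199 CPM on average (adjusted p = 0.4247). The constant regions of the IgG subclasses are alike in sequence, and reads may have been divided between them.

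**Figure D4:**
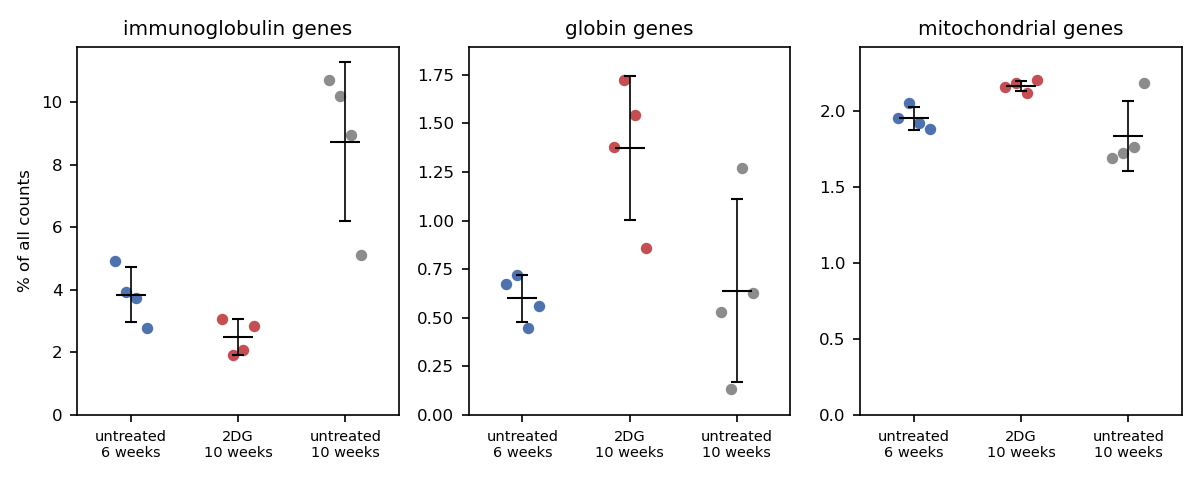
Share of all counts (vertical axis, percent, from 0) taken by immunoglobulin, globin and mitochondrial genes in each library of the 3 groups, with the mean and SD of 4 libraries as black bars. Globin shares with 2DG (0.86 to 1.72%) lie above those at 6 weeks (0.448 to 0.719%), while immunoglobulin shares of these groups overlap and both lie below the 5.11 to 10.7% of untreated 10-week spleens.

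Of 22 genes of ER folding and its stress response, 5 fell against 3.11% of all genes, none rose, 20 fold changes were negative and the median was -0.35. The 5 were Syvn1 and Edem1, which pass misfolded proteins to degradation, Hyou1, a chaperone, and the stress regulators Atf6 and Xbp1, the last of which is also on the plasma cell list. Syvn1 read 203, 198, 199 and 191 CPM at 6 weeks and 145, 154, 155 and 162 with 2DG. This was a narrow but complete separation (-0.36 ± 0.049, adjusted p = 0.007457), and it was called in every fit without 1 library. Edem1 had the largest of these falls, from 533, 453, 481 and 343 CPM to 296, 267, 247 and 300.2 (-0.70 ± 0.127, adjusted p = 0.02164), and lost its call without 6-week replicate 3 or 2DG replicate 10 or 11. The count of 5 became 4, 2, 1 and 16 without the 6-week replicates 1 to 4 and 3, 1, 1 and 5 without the 2DG replicates 9 to 12, and 0 in the 12-library fit. The 6-week replicate 4 was the lowest 6-week library for Mzb1, Edem1 and Xbp1. The major chaperone genes Hspa5 (-0.25, adjusted p = 0.3095) and Hsp90b1 (-0.86, adjusted p = 0.05019) did not pass, and the stress-induced death regulator Ddit3 was at 0.24 (adjusted p = 0.117). Of 28 genes of N-linked glycosylation, the process 2DG can disturb, Rpn1 alone fell (-0.33 ± 0.086), with a list median of -0.10. A count of 1 in 28 is near the 3.11% of all genes that fell. The Rpn1 call was lost in 7 of the 8 fits without 1 library.

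The ER stress response element, with the letters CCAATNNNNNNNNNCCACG, was looked for on both strands of the 250 bases before RefSeq gene starts (GRCm38.p6). It was found in 8 of 19 windows of the ER list, or 42.1%, against 0.113% of 32851 windows of all genes. The windows with a match belonged to Calr, Canx, Creld2, Dnajc3, Hsp90b1, Hspa5, Pdia6 and Syvn1. The Syvn1 window is shown because this gene's fall was the steadiest of the list, with the match in capitals, beginning 44 bases before the gene's start:
Syvn1 (chr19:6046326-6046575, plus strand): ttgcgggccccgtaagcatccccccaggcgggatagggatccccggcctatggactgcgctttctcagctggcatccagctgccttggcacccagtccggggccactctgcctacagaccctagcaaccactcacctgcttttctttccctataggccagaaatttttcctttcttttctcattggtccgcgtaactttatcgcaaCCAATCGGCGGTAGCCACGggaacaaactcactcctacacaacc
Syvn1 was the only gene among these 8 that passed the test. A match of letters describes the window and does not show a bound factor.

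In a list of interferon gamma targets 4 of 21 fell and none rose, against 3.11% of all genes lower, 20 fold changes were negative and the median was -0.38. Cxcl9, a chemokine that draws activated T cells, read 138, 73.7, 97.3 and 61.5 CPM at 6 weeks, 37.6, 29.8, 35.2 and 46.9 with 2DG, and 85.8 to 420.0 in untreated 10-week spleens. No treated spleen reached the lowest 6-week spleen (-1.31 ± 0.278, adjusted p = 0.04144). Irf1, a transcription factor induced by interferon gamma, read 175, 157, 189.7 and 162 CPM at 6 weeks and 135, 116, 144 and 146 with 2DG (-0.34 ± 0.082, adjusted p = 0.03421). The immunoproteasome gene Psmb9 (-0.38) and the guanylate-binding protein gene Gbp4 were the other falls. Ifng itself was scarce, 0.870 CPM on average at 6 weeks and 0.481 with 2DG (adjusted p = 0.1614). None of these 4 calls held in every fit: the count was 1, 1, 0 and 2 without the 6-week replicates 1 to 4, 0 without 2DG replicate 9, 10 or 11, and 8 without 2DG replicate 12. In the 12-library fit it was 0.

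Of 24 type I interferon genes 3 fell and none rose, against 3.11% of all genes lower. The list's summed level with 2DG, 1176 to 1318 CPM, lay inside the 6-week range of 1165 to 1977 CPM. The highest of these was 6-week replicate 1. The median log2 fold change was -0.49, with 21 fold changes negative and 3 positive. The positive ones did not pass: Rsad2, the gene of the antiviral enzyme viperin (0.90 ± 0.266, adjusted p = 0.08965), Isg15 (0.37) and Cmpk2 (0.27). Rsad2 read 192.5, 134, 102 and 100.4 CPM at 6 weeks and 258, 289, 272 and 170.3 with 2DG, where the lowest treated spleen lay under the highest 6-week spleen. Ddx58, which encodes the RNA sensor RIG-I, read 163, 155, 154 and 152 CPM at 6 weeks and 123, 119.6, 128 and 131 with 2DG (-0.32 ± 0.049, adjusted p = 0.01078), and was called in every fit without 1 library. It differed from the interferon gamma genes in that untreated 10-week spleens read 113 to 149 CPM, near the treated ones. Trim30a (-0.50 ± 0.107) and the antiviral gene Mx2 (-0.79 ± 0.196) lay likewise lower than at 6 weeks. Mx2 averaged 11.3 CPM at 6 weeks, 6.57 with 2DG and 6.14 in untreated 10-week spleens, and 6-week replicate 1 stood far above the rest at 16.6 CPM. Without single libraries the count of 3 became 4, 2, 1 and 2 (6-week replicates 1 to 4) and 1, 1, 1 and 3 (2DG replicates 9 to 12), and 0 in the 12-library fit. Without 6-week replicate 1, 2 genes of the list passed as rises. Tlr7, the sensor carried by the Yaa segment, did not pass, at 185 to 257 CPM and 177 to 201 CPM (adjusted p = 0.2091).

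The interferon gamma-activated site, TTCNNNGAA, was found in 9 of 19 windows of 250 bases for the interferon gamma list, or 47.4%, against 7.02% of all windows on either strand. The matched genes were Gbp5, Gbp7, Igtp, Irf1, Irgm2, Psmb8, Serpina3f and Serpina3g, and Irf1 alone of them passed the test. As for the ER element, a match of letters does not show a bound factor. The Irf1 window is given as the example, with the match in capitals 90 bases before the gene's start:
Irf1 (chr11:53769764-53770013, plus strand): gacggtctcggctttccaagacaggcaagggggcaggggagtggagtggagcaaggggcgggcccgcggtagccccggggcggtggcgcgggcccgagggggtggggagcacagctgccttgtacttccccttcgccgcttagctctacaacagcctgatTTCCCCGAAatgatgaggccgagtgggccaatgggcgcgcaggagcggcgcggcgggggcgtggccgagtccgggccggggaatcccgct

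Erythroid genes made up the clearest group of rises. Of 20 tested out of a list of 21, Ahsp being the one not tested, 17 rose and none fell, where 4.43% of all genes rose. The median log2 fold change was 1.21. For all 20, every treated spleen lay above every 6-week spleen, against 15.8% of all genes whose groups did not overlap. Slc4a1, which encodes the anion exchanger band 3 of the red cell membrane, read 1138, 982, 798 and 812 CPM at 6 weeks and 2471, 3039, 2299 and 1370.0 with 2DG. The treated replicate 12 was the lowest of its group for this and other erythroid genes (log2 fold change 1.30 ± 0.251, adjusted p = 0.0327). Epb42, a membrane skeleton protein, read 131, 105, 93.7 and 87.5 CPM and then 275, 344, 264 and 162 (1.32 ± 0.244, adjusted p = 0.02983). Alas2, the first enzyme of haem synthesis in erythroid cells, read 385, 399, 251 and 309.5 CPM and then 784, 987, 844 and 452 (1.19, adjusted p = 0.0457). The erythroid regulators Klf1 (1.32) and Gata1 (1.06) rose too, while the erythropoietin receptor gene Epor (1.09, adjusted p = 0.06365), the transferrin receptor gene Tfrc (0.98, adjusted p = 0.05647) and the mitochondrial iron importer gene Slc25a37 (0.98, adjusted p = 0.05193) did not pass.

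The count of 17 depended on which libraries were fitted. There were 4 without 6-week replicate 1, 20 without 2DG replicate 12, none without any other single library, and none in the 12-library fit. For Slc4a1 the adjusted p stayed at or below 0.0919 over the fits without 1 library. The list's summed level ran from 8389 to 12190 CPM at 6 weeks, from 14610 to 30770 with 2DG and from 3775 to 22790 in untreated 10-week spleens, so 1 untreated 10-week spleen reached the treated range. Globin genes took 0.675, 0.719, 0.448 and 0.56% of counts at 6 weeks and 1.38, 1.72, 1.54 and 0.86% with 2DG. The exact two-sided permutation p was 0.0286, the smallest that 4 against 4 can give, and 0.0571 adjusted over 4 classes. The near-identical Hba-a1 and Hba-a2, and Hbb-bs and Hbb-bt, may share reads, so their separate values are uncertain. Other large rises picked by size included Tmcc2, a transmembrane protein gene (1.51), the glycine transporter gene Slc6a9 (1.38), the blood group gene Rhd (1.36) and the red cell chemokine receptor gene Ackr1 (1.35), whose calls were likewise lost in 6 or 7 of the 8 fits. Trim10 (1.41), Slfn14 (1.38), Plek2 (1.46) and Sowaha (1.44) lost theirs in 4 to 6 fits, and all 8 were lost without 6-week replicate 2, 3 or 4 or 2DG replicate 11.

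A GATA motif, AGATAA on either strand, lay in 4 of 14 erythroid windows of 250 bases (28.6%) and in 9.99% of all windows. The matched genes were Alas2, Epb42, Epor and Hbb-bs, of which Epor did not pass the test. Here too a match of letters does not show a bound factor. The rises of Alas2, Epb42 and Hbb-bs passed the test. Alas2 and Epb42 are shown as examples, with the motif in capitals as it reads on the strand printed:
Epb42 (chr2:121036878-121037127, minus strand): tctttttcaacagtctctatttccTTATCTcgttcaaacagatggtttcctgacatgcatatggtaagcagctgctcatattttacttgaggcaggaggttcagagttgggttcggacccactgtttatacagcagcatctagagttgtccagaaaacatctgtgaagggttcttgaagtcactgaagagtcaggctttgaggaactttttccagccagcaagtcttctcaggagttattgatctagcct
Alas2 (chrX:150547167-150547416, plus strand): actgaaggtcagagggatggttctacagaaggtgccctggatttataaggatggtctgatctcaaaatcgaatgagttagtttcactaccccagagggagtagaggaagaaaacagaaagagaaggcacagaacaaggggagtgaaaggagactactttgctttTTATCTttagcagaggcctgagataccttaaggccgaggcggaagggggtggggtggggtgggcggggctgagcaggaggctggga

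Of 30 cell cycle genes, 29 were nominally higher with 2DG (median 0.31), yet none passed. The smallest adjusted p belonged to Ccnb2, a mitotic cyclin gene (0.61 ± 0.168, adjusted p = 0.06686). Without 2DG replicate 12, 11 of the 30 passed. Of 16 macrophage genes of red pulp and iron recycling, 3 were called higher and none lower, against 4.43% and 3.11% of all genes. Their fold changes were positive for 14 and negative for 2. The 3 called were Vcam1, an adhesion molecule of red pulp macrophages, and the receptors Axl and Mertk, which take up dying cells. Vcam1 read 530.2, 588, 519.8 and 435 CPM at 6 weeks and 696, 664, 757 and 783 with 2DG (0.49 ± 0.087, adjusted p = 0.0154). It stood at 387 to 1289 CPM in untreated 10-week spleens, and the call was lost without 2DG replicate 11. The macrophage count was 2, 2, 6 and 1 without the 6-week replicates 1 to 4 and 2, 2, 0 and 3 without the 2DG replicates 9 to 12. In the 12-library fit it was 0.

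Glycolysis, the pathway that 2DG blocks, had calls in both directions. Of 25 genes 3 rose and 3 fell, against 4.43% and 3.11% of all genes. Fold changes were negative for 17 genes and positive for 8, with a median of -0.10. Hk2, the inducible hexokinase of activated lymphocytes, read 47.7, 34.1, 38.9 and 33.6 CPM at 6 weeks and 27.6, 26.3, 26.9 and 26.0 with 2DG. The treated values were close together and under all 6-week values (-0.53 ± 0.102, adjusted p = 0.01972), and the untreated 10-week spleens read 36.9 to 61.0. The phosphofructokinase gene Pfkp (-0.39 ± 0.084) and the pyruvate kinase gene Pkm (-0.26) also fell. Pfkm, the muscle-type phosphofructokinase that red cells also carry, rose from 28.4, 26.4, 28.1 and 24.2 CPM to 45.0, 56.7, 42.6 and 33.6 (0.73 ± 0.139, adjusted p = 0.02428). As for the erythroid genes, 2DG replicate 12 was the lowest treated spleen. Hk1 (0.48 ± 0.124) and the lactate transporter gene Slc16a1 (0.69 ± 0.132) rose with it. The part of erythroid RNA in these 3 rises was not tested. The glucose transporter gene Slc2a1 did not pass (0.13 ± 0.062, adjusted p = 0.22), and Txnip, a glucose-responsive gene, rose with overlapping groups (0.33 ± 0.087, adjusted p = 0.04316).

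None of the 6 glycolytic calls held in all fits: the rises numbered 2, 0, 0 and 0 without the 6-week replicates 1 to 4 and 0, 2, 0 and 3 without the 2DG replicates 9 to 12, and the falls 1, 2, 0 and 2 and then 2, 1, 0 and 3. Genes of the pentose phosphate pathway (7 tested), the tricarboxylic acid cycle (14), the nuclear encoded respiratory chain (26), sterol and fatty acid synthesis (20) and the hypoxia response (11) gave no calls, with medians between -0.06 and 0.10. Mitochondrial genes took 1.88 to 2.05% of counts at 6 weeks and 2.12 to 2.2% with 2DG (exact permutation p = 0.0286, adjusted p = 0.0571). Among 18 amino acid response genes, Slc3a2 (0.38) and Mthfd2 (0.33) rose and the cystine transporter gene Slc7a11 (-0.49) fell. Across all genes tested, 4.43% rose and 3.11% fell. Fold changes in this list were positive for 12 genes and negative for 6. Slc3a2 averaged 134.8 CPM at 6 weeks, 175.4 with 2DG and 205 in untreated 10-week spleens.

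**Figure D5:**
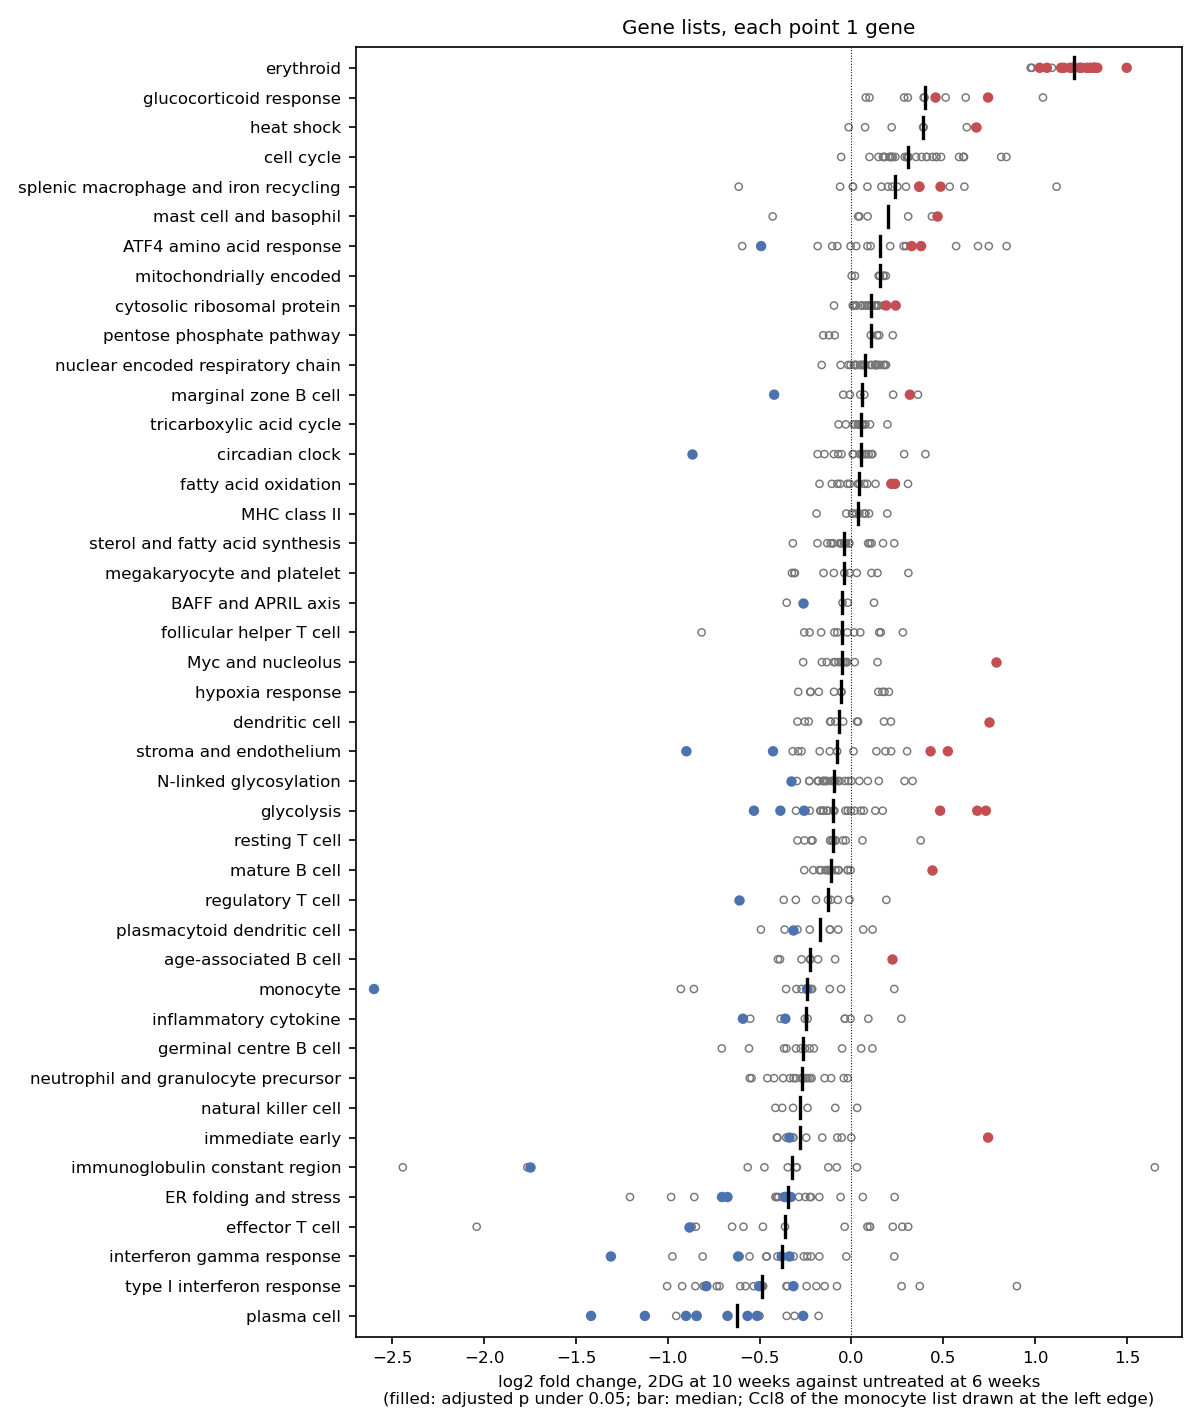
Log2 fold change with 2DG (horizontal axis) of each tested gene in the gene lists with 5 or more tested members (vertical axis), each point 1 gene, filled where the adjusted p was under 0.05 and red or blue for higher or lower, with a bar at the list's median. The erythroid median of 1.21 stands at the top, the plasma cell median of -0.62 at the bottom, and most other medians lie close to 0.

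Lymphoid lists held few calls. Cr2, the complement receptor of B cells and follicular dendritic cells, read 635 to 818 CPM at 6 weeks and 927 to 1080 with 2DG (0.44 ± 0.079, adjusted p = 0.01527). It was the only 1 of 16 mature B cell genes to pass, where 4.43% of all genes rose and 3.11% fell. The 15 others had negative fold changes, with a list median of -0.11. Without 6-week replicate 1, 2 genes of this list passed as falls. Of 8 genes of the marginal zone B cell list, the antigen-presenting molecule gene Cd1d1 rose (0.32) and Plac8 fell. Among 15 effector T cell genes the inhibitory receptor gene Tigit fell, from 12.5 to 6.81 CPM on average (-0.88 ± 0.201, adjusted p = 0.03352), and among 9 regulatory T cell genes Il2ra, the interleukin 2 receptor alpha chain, fell from 18.4 to 12.0 CPM (-0.61 ± 0.114, adjusted p = 0.01729). Il21, the helper T cell cytokine that drives plasma cell formation, averaged 8.42 and 4.80 CPM and did not pass (-0.82 ± 0.357, adjusted p = 0.2062). Germinal centre B cell (12 tested), follicular helper T cell (12), resting T cell (15), natural killer cell (6), neutrophil (18), megakaryocyte (11) and MHC class II (10) genes gave no calls. The 18 neutrophil genes were all nominally lower, with a median of -0.27, and their summed level overlapped between groups, 1102 to 3058 CPM at 6 weeks and 927.1 to 2391 with 2DG. Rag1, the V(D)J recombinase gene of lymphocyte precursors, had the largest fall among called genes with a mean log2 CPM of 2 or more and no overlap, immunoglobulin, T cell receptor and predicted genes left out. It went from 10.9, 11.4, 5.41 and 9.82 CPM to 1.30, 4.02, 3.42 and 3.70 (-1.597 ± 0.353, adjusted p = 0.03838). That call was lost without any of 6 libraries, the 6-week replicates 1, 2 and 4 and the 2DG replicates 10, 11 and 12. The monocyte chemokine gene Ccl8 fell to 0.13 to 0.223 CPM with 2DG from 0.982 to 8.86 at 6 weeks (adjusted p = 0.02793).

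Levels in untreated spleens of the same age are set beside those of the genes above. In a fit of all 12 libraries, 1376 of 18542 genes differed between treated and untreated 10-week spleens, or 7.42%. With 2DG 401 of them were higher and 975 lower. The same fit gave 24 calls against 6 weeks. With only the compared groups fitted, 581 genes differed from untreated 10-week spleens and 1367 from 6-week spleens. Counts from these unlike fits cannot be set against each other. The comparison at 10 weeks shares the 2DG libraries with the one against 6 weeks, and the values are therefore given side by side without a test of their likeness. Irf4 averaged 234 CPM at 6 weeks, 164 with 2DG and 318 untreated at 10 weeks, Mzb1 327.5, 150.2 and 542, Edem1 453, 278 and 716, and Hk2 38.6, 26.7 and 50.6. Cxcl9 averaged 92.5, 37.4 and 219.6 CPM. Arid3a, at 78.2, 45.7 and 84.1 CPM, and Il33, at 47.5, 25.5 and 54.5, were nearly level in both untreated groups. Slc4a1, at 932, 2295 and 1093 CPM, was also near the 6-week mean in untreated 10-week spleens, where its difference from 2DG did not pass (adjusted p = 0.1373). For Axl (237, 307 and 308 CPM) and Vcam1 (518, 725 and 744 CPM) the treated and untreated 10-week means were close, with adjusted p = 0.9866 and 0.9574.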

How the data were processed

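Spleen RNA was selected for poly(A) and made into libraries with a TruSeq v2 kit, per the labels' protocols, a chemistry without strand information. Counts for 53715 genes in 12 libraries, as whole numbers in a single table, are what the authors deposited. Bowtie2 2.2.0, RSEM 1.2.12 and GRCm38 stand in the submitters' processing notes. How RSEM's estimates became whole numbers is not stated by any label or header. Without strand, overlapping and antisense genes cannot be separated, and near-identical genes may share reads.

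From these counts, gene IDs were matched without version to GENCODE M21 (53620 of 53715). Genes were kept by edgeR's filterByExpr (18139) and tested in the 8 libraries compared with edgeR 4.0.16 (R 4.3.3): TMM scaling, robust quasi-likelihood fit, Benjamini-Hochberg adjusted p under 0.05. Errors of log2 fold changes are standard errors. CPM per library use TMM factors of all 12 libraries. Shares of counts were compared by exact permutation tests. The alternatives were other scalings, filters and tools (DESeq2 1.42.0, limma 3.58.1), a 12-library fit, and each library left out. The test was tried on simulated data. Promoter windows are the 250 bases before RefSeq starts (GRCm38.p6).

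Genes named were the 12 largest rises and falls past the threshold whose groups did not overlap and whose mean log2 CPM was 2 or more, without immunoglobulin, T cell receptor and predicted genes, up to 3 per list, and 13 set genes. Some list members and all genes said to be picked after their values were seen are beyond this rule. The comparison, lists and rule were chosen with earlier results of these data known.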

Additional observations from a re-analysis of the deposited data

Results flagged for a closer look

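In 216 groups of 4 values (the named genes and the count shares, at 6 weeks and with 2DG), 3 held a library whose gap to its nearest neighbour, as a share of the group's range, passed Dixon's critical value for 4 samples, where chance gives about 1 in 20 groups. For Mx2, the 6-week replicate 1 stood at 16.57 CPM against 9.389 to 9.902 in the other 6-week spleens. For Il2ra, the 2DG replicate 12 stood at 14.1 CPM against 11.22 to 11.39. For Cd8a, the 2DG replicate 10 stood at 59.18 CPM against 46.68 to 48.2, and its fall against 6 weeks did not pass with all 8 libraries (-0.29, edgeR adjusted p = 0.07811).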

How the results depend on the processing

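The count of 1367 genes became 24 in the 12-library fit, 2134 with DESeq2 and its own filter (35052 genes entered in place of 18139) and 1 against a fold change of 1.5, and ran from 133 to 1826 when 1 library was left out. It was within 1.5 times with median-of-ratios size factors (1373), no filter (1665), at least 1 CPM in 4 libraries (1486), immunoglobulin (1588) or globin genes removed (1370), and limma voom with quality weights (1672). Higher genes were 58.7% of calls, but 29.2% in the 12-library fit, 44.2% without 6-week replicate 4 and 45.6% without 2DG replicate 9. Of 104 named genes, Il15 alone changed sign, from -0.01 to 0.003 with no filter and ran from -0.072 to 0.054 without 1 library, above 0 without 6-week replicate 2 or 3 or 2DG replicate 9 or 10, never with a call. Without 2DG replicate 11, 65 named genes lost their call. The share of the 10 most counted genes differed by 0.0804 points, by -0.0106 with mitochondrial counts left out of the total, and by -0.11 to 0.275 without 1 library. Against untreated 10-week spleens the 1376 calls became 581 with only those groups fitted and 514 to 2209 without 1 library, alternatives chosen after seeing the data. No paired analysis was possible because the replicate numbers run on from group to group. The causes were not tested. With 4 libraries a group, a fold change that did not pass is not shown to be absent.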

Other observations

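Calls were spread unevenly over annotated gene types. Among all genes tested, 4.43% rose and 3.11% fell. Of 644 genes annotated as TEC (transcript models still awaiting experimental support), 3 rose (0.466%) and 33 fell (5.12%) with 2DG, with a median log2 fold change of -0.16. Of 628 antisense genes 8 rose (1.27%) and 17 fell (2.71%), with a median of -0.11. Of 1291 processed pseudogenes 35 rose (2.71%) and 9 fell (0.697%), with a median of 0.03. Of 13971 protein-coding genes 734 rose (5.25%) and 452 fell (3.24%), with a median of 0.01. The gene with the smallest p of the whole comparison was the TEC model Gm42870, at 87.8, 98.2, 99.2 and 102 CPM at 6 weeks and 52.7, 55.3, 53.3 and 54.3 with 2DG (edgeR adjusted p = 0.0001183), with 32.8 to 87.9 CPM in untreated 10-week spleens. It was singled out after its values were seen and was called in every fit without 1 library, and the part of RNA quality or unspliced RNA in these differences was not tested.

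The 8 heat shock genes were nominally higher in 7 cases, and Dnajb1, a co-chaperone gene, rose (0.68 ± 0.146, adjusted p = 0.0344), a call lost without 6-week replicate 1 or 3 or 2DG replicate 9, 10 or 11. The 11 glucocorticoid response genes were all nominally higher (median 0.40), with Dusp1 and Klf9 called. Across all genes tested, 4.43% rose and 3.11% fell. Klf9 lost its call in 7 of the 8 fits without 1 library. Dusp1 averaged 30.8 CPM with 2DG and 38.4 in untreated 10-week spleens. This gene is also among 12 tested immediate early genes, of which 11 had negative fold changes and Egr1 was called lower (-0.34). Odc1, the enzyme that starts polyamine synthesis, rose from 89.5 ± 12.7 CPM to 154.6 ± 24.7 (SD, n = 4 each), with edgeR adjusted p = 0.02033, and lost its call without 6-week replicate 3 or 2DG replicate 11.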
